A study of Saccharomyces cerevisiae with 6 samples.

Results

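The yeast cell wall genes examined here are 46 genes that encode the enzymes making glucan and chitin, the enzymes remodelling these polymers, and the structural proteins of the wall. They were chosen by gene name, from their known functions and with earlier results of these data known. All 46 were found among the 18646 transcriptional units of the deposited table. A unit is a protein-coding gene or an annotated noncoding transcript. The study sequenced ribosomal RNA-depleted total RNA from the W303 laboratory strain of Saccharomyces cerevisiae, as 76-nt single-end reads, to compare WT cells (3 samples) with Δset2 cells (3 samples) lacking the Set2 histone methyltransferase. Both groups share the W303 background and were grown in rich medium (YPDA) to an optical density of 0.6, and the labels give HIS3 as the marker of the deletion whereas the methods of the study name a KanMX cassette. Each sample came from a separate colony. All 6 libraries were sequenced in 1 pool, and the labels name no mating type and no other genetic difference.

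The wall of budding yeast is built from a fibrous network of β-1,3-glucan, made at the plasma membrane, to which shorter glucan branches, chitin and mannoproteins are attached. Mannoproteins are joined through a remnant of their membrane anchor or, in the PIR family (proteins with internal repeats), directly to the glucan, and hydrolases and transglycosylases trim and cross-link the network as the cell grows and divides. A cell wall integrity pathway signals wall damage to the transcription factor Rlm1, and daughter cells make enzymes that degrade the septum after division. Set2 travels with elongating RNA polymerase II and methylates histone H3 in transcribed genes. W303 strains are known to carry a truncated allele of SSD1, an RNA-binding protein that acts on mRNAs of wall proteins, and the allele in these cells was not examined.

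Library totals ran from 5135226 reads (Δset2 2) to 22536840 reads (Δset2 3). The deleted gene had 298 to 459 reads in the WT samples and 9 to 32 in the Δset2 samples, a log2 fold change of −4.27 (SE, 0.19), so each library fitted its label. Transcripts of MATa-specific genes were present in both groups, whereas the MATα pheromone gene MF(ALPHA)1 had 0 to 2 reads in every library. Of the other MATα-specific genes, STE3 had 1 to 22 reads per library, but SAG1 had 208 to 1049. MF(ALPHA)2 had 0 reads and 0 nt outside other units, so it gives no information. Of the 46 cell wall genes, 42 had enough reads to be tested, among 5317 units in all. GAS2, CHS7 and DSE2 had 0 reads in every sample. Reads falling on more than 1 unit had been discarded during counting, and these 3 genes had only 0, 73 and 49 nt outside other units. Their listing at 0 therefore gives no information on their expression. GAS4, a sporulation-specific glucan elongase, was not tested either, with 5, 4 and 6 WT reads and 3, 1 and 3 Δset2 reads over 490 countable nt.

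Of the 42 genes tested, 2 passed both thresholds of the study (adjusted P values below 0.05 with differences over 1.5-fold), and both were higher in Δset2 cells. Across all tested units 3.57% passed both thresholds, 2.84% as higher and 0.733% as lower. These genes were HPF1, which encodes a mannoprotein known for reducing haze in wine, and KRE1, which encodes a wall glycoprotein required for β-1,6-glucan. GSC2, SED1 and CIS3 passed the adjusted P value but not the fold change. All P values were obtained by quasi-likelihood testing in edgeR and adjusted by the Benjamini-Hochberg method across the tested units, and fold changes compare Δset2 with WT. No cell wall gene was lower at an adjusted P value below 0.05, and SUN4 was the 1 gene lower at an unadjusted P value below 0.05. DESeq2 likewise gave 2 genes past both thresholds and 0 lower. At the adjusted P value alone, 5 of 42 genes passed in edgeR, against 6.24% of all tested units, of which 4.48% were higher and 1.77% lower. DESeq2 gave 6 genes at its adjusted P value, the same 5 and CWP1, against 6.49% of all units.

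HPF1 had 91.1, 105 and 87.2 normalized CPM (reads scaled to a common library size) in WT samples 1, 2 and 3 and 267, 195 and 236 in Δset2 samples 1, 2 and 3, the order kept throughout. Every Δset2 sample lay above every WT sample, and the lowest Δset2 value was well clear of the highest WT value. The fold change was 2.47 (log2, 1.30; SE, 0.13; adjusted P value, 0.00046). In bulk RNA, a different share of cells in a given state and a different amount of RNA per cell cannot be told apart. Because HPF1 resembles YIL169C, the uniqueness of its sequence was examined. Of all 76-nt words in the HPF1 unit, 91.1% occurred once in the genome. The only other unit sharing words with HPF1 was YIL169C, which had 0 reads in all samples and only 222 countable nt. Reads from the shared stretches had been removed, so they contribute to neither gene.

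KRE1 had 112, 109.9 and 120.5 CPM in WT samples and 196, 185 and 161 CPM in Δset2 samples. The groups did not overlap, and the WT samples lay within a narrow band. The fold change was 1.58 (log2, 0.66; SE, 0.10; adjusted P value, 0.0052). GSC2, the glucan synthase subunit also named FKS2, had 195, 247 and 207 CPM in WT samples and 371, 285 and 306 CPM in Δset2 samples. Again the groups did not overlap, although WT 2 came closer to Δset2 2 than to WT 1. The log2 fold change was 0.57 (SE, 0.13; adjusted P value, 0.031).

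SED1, a major anchored glycoprotein of the wall of resting cells, had 1185, 1326 and 1298 CPM in WT samples and 1999, 1532 and 1852 CPM in Δset2 samples. Its log2 fold change was 0.50 (SE, 0.12; adjusted P value, 0.043). CIS3, a PIR protein, had 725, 768 and 771 CPM in WT samples and 1078, 968 and 1036 CPM in Δset2 samples. Here the spread within groups was small and the log2 fold change was 0.45 (SE, 0.10; adjusted P value, 0.029). Neither pair of groups overlapped. The plot of the 8 genes with the smallest P values adds KRE9, CWP1 and CWP2, which are described with their roles.

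**Figure D1:**
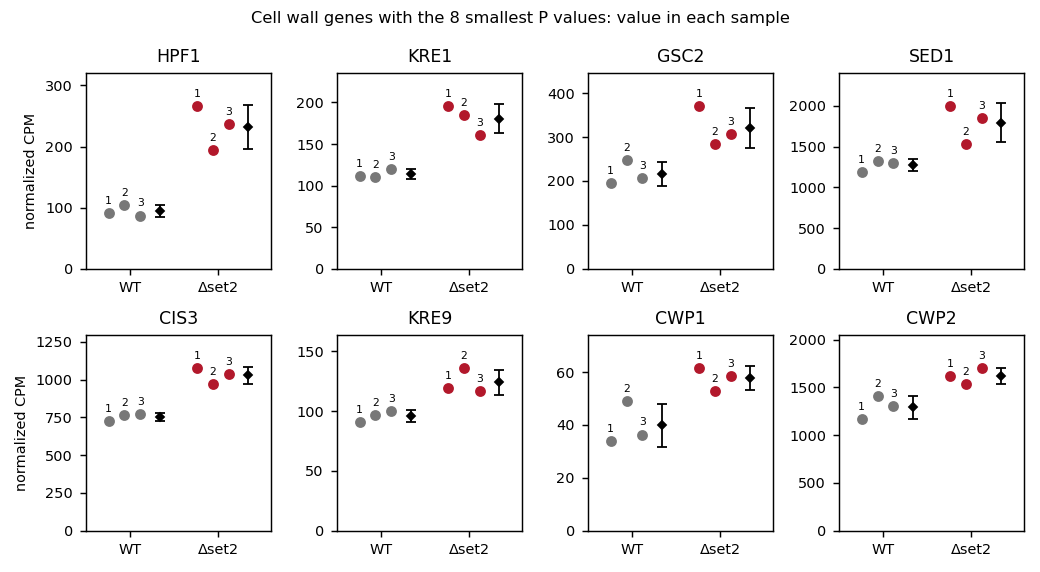
Normalized CPM in each sample for the 8 cell wall genes with the smallest P values, on axes that start at 0. Numbered points are samples 1 to 3 of WT (grey) and Δset2 (red), and black diamonds with bars are the mean and SD of the 3 samples. In each of the 8 panels all Δset2 points lie above all WT points, as in 14.1% of all tested units. The genes were picked by their P values in the same comparison, which favours such separation. HPF1 has the largest fold change, with 195 to 267 against 87.2 to 105.

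The sequences before the starts of these 5 units are shown because they let the transcription factor motifs mentioned below be located. They were read from the S. cerevisiae R64 genome, which has the coordinates of sacCer3, on the strand of each gene. For HPF1 (chrXV:31687-31936, minus strand), KRE1 (chrXIV:34271-34520, minus strand), SED1 (chrIV:600501-600750, plus strand) and CIS3 (chrX:123001-123250, minus strand), the 250 bases before the unit are given. For GSC2, the 30 bases of chrVII:547918-547947 (plus strand) around its Rlm1 match are given, from 9 bases before to 21 bases after the start. Capitals mark matches on either strand to the TATA element TATAAA, to AGGGG (the core of the stress element bound by Msn2 and Msn4) or, in GSC2, to the motif of Rlm1.
HPF1: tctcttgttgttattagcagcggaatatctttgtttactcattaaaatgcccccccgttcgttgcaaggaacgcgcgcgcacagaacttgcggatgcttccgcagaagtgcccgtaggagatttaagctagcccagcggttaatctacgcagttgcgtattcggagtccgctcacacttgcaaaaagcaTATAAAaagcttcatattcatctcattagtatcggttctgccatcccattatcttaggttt
KRE1: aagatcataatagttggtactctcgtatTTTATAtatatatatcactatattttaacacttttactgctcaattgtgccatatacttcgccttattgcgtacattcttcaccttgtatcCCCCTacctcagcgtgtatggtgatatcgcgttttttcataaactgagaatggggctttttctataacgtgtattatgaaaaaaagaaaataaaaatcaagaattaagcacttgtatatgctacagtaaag
GSC2: aactggtgtgCTAAGAATAGagtttcataa
SED1: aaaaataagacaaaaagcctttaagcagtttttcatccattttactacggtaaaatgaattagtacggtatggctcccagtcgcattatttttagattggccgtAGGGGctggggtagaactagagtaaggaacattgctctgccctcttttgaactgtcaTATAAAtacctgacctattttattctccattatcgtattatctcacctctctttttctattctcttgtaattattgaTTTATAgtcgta
CIS3: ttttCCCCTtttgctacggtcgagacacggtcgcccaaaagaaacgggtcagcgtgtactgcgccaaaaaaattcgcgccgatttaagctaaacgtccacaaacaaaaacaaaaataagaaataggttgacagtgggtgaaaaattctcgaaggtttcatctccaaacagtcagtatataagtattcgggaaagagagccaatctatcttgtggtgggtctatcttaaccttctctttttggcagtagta
HPF1 had a single TATA match, at −61 to −56, and no match to AGGGG or the Rlm1 motif. KRE1 had AGGGG on the opposite strand at −131 to −127, SED1 had it at −146 to −142, and CIS3 had it on the opposite strand at −246 to −242. The match of GSC2 to the loose Rlm1 pattern, CTAAGAATAG, began at base 2 of the unit and so lies inside it, not before its start. A match is a description of letters and not evidence of binding.

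Over the whole group, 18 of 42 genes had all 3 Δset2 samples above all 3 WT samples, and 1 gene (SUN4) had all below. Among all tested units, 14.1% had Δset2 above WT without overlap and 13.8% had it below. A positive log2 fold change was found for 29 of 42 genes (69.0%), compared with 49.5% of all units. At an unadjusted P value below 0.05, which 23.6% of all units reached, 10 genes were higher (23.8%, against 12.8% of all units) and 1 was lower (2.38%, against 10.7%). The median log2 fold change was 0.14 over the cell wall genes and −0.00 over all units, and the cell wall genes ranged from −0.31 to 1.30. These shares describe a list chosen with earlier results of these data known and carry no test. Because these genes contribute much RNA, their summed level was also taken. It was 34400, 35570 and 34520 CPM in WT samples and 38880, 38300 and 38630 CPM in Δset2 samples, which did not overlap. As a share of all reads, the 46 genes took 3.42% to 3.60% in WT and 3.74% to 3.92% in Δset2. The single gene CCW12 made up 24.3% to 29.0% of the summed level.

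**Figure D2:**
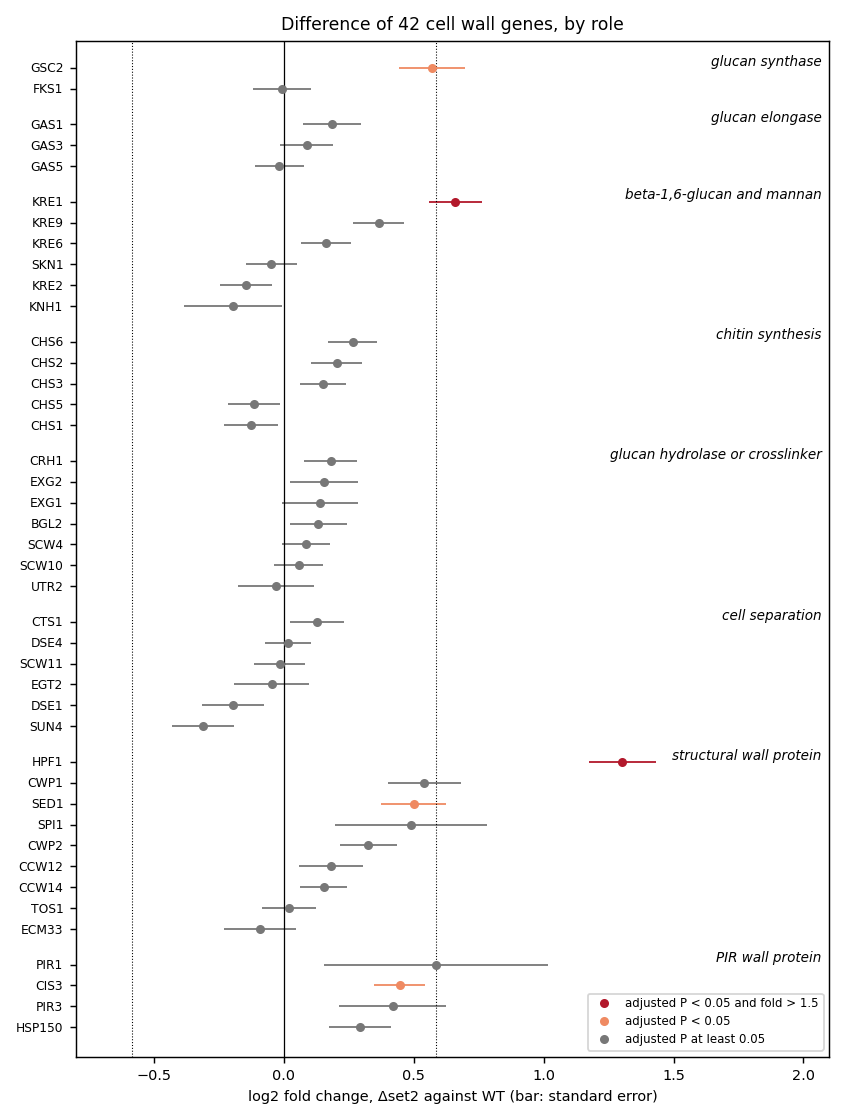
Log2 fold change of Δset2 against WT for the 42 tested cell wall genes, grouped by role, with bars for the standard error and dotted lines at a fold change of 1.5 in either direction. HPF1 (1.30) and KRE1 (0.66) lie beyond the line and are red, and GSC2, SED1 and CIS3 in orange passed the adjusted P value alone. Points of the structural and PIR proteins lie mostly to the right of 0, and those of the cell separation genes lie around it.

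The 2 catalytic subunits of glucan synthase behaved differently in their values. FKS1, the main subunit in growing cells, had 4807, 4451 and 4273 CPM in WT samples and 4828, 4398 and 4234 CPM in Δset2 samples. The groups overlapped throughout, with a log2 fold change of −0.01 (SE, 0.11; adjusted P value, 0.98) whose sign was not stable, since upper quartile normalization turned it to 0.01. GSC2, the alternative subunit that is known to take over under stress and poor carbon sources, was the higher one in Δset2, as given above. The difference between these 2 log2 fold changes was not tested. Per kilobase of countable unit, FKS1 stood at 801 ± 48.3 CPM per kb (SD, n = 3) in WT, whereas GSC2 stood at 35.6 ± 4.49 in WT and 52.8 ± 7.39 in Δset2. FKS1 thus remained the more abundant transcript in both groups.

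Among the glucan elongases, glucanosyltransferases that lengthen and branch β-1,3-glucan, 0 of 3 tested genes passed a threshold in either tool, and 0 had an unadjusted P value below 0.05. GAS1, the most abundant of them, had 2601, 2609 and 2490 CPM in WT samples and 2643, 3149 and 2965 CPM in Δset2 samples. Its groups did not overlap, but the gap between WT 2 and Δset2 1 was small (log2 fold change, 0.19; SE, 0.11; adjusted P value, 0.34). GAS3 had 259, 272 and 244 CPM in WT samples and 245, 292 and 287 CPM in Δset2 samples. For GAS5 the values were 353, 390.3 and 340.3 CPM against 348, 362 and 362 CPM. Both sets overlapped, with log2 fold changes of 0.09 and −0.02.

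Of the 6 genes for β-1,6-glucan and mannan, KRE1 was the 1 past both thresholds, which 3.57% of all tested units passed. KRE9 had the next largest value. KRE9, a secreted glycoprotein required for β-1,6-glucan, had 90.7, 97.0 and 100.3 CPM in WT samples and 119, 136 and 117 CPM in Δset2 samples. The groups did not overlap, and the adjusted P value was 0.056 (log2 fold change, 0.37; SE, 0.10). KRE6, a membrane protein of the glycosyl hydrolase type, was similar in direction at 363, 377 and 365 CPM against 377, 443 and 417 CPM (log2 fold change, 0.16; adjusted P value, 0.34). Their less expressed relatives did not share these values. SKN1, the KRE6 homolog, had a log2 fold change of −0.05 and KNH1, the KRE9 homolog, one of −0.20, with only 20 to 71 reads per sample for KNH1. KRE2, a Golgi mannosyltransferase, had 357, 322 and 347 CPM against 282, 336 and 310 CPM, which overlapped (log2 fold change, −0.15). The role as a whole had a median of 0.06.

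Chitin synthesis was represented by 3 synthases and 2 transport factors, of which 0 of 5 passed the adjusted P value with either tool. CHS6 is part of the coat that carries Chs3 to the plasma membrane. In edgeR it was the 1 gene with an unadjusted P value below 0.05, against 23.6% of all tested units. DESeq2 gave 0. CHS6 had 26.8, 27.1 and 26.8 CPM in WT samples and 31.3, 32.5 and 33.3 CPM in Δset2 samples. Although the groups were well separated, the log2 fold change was only 0.27 (SE, 0.09; adjusted P value, 0.12). CHS2, which makes the primary septum, had 166, 139.9 and 159 CPM against 190.3, 175 and 171 CPM (log2 fold change, 0.20; adjusted P value, 0.25). CHS3, which makes most wall chitin, had 307, 296 and 302 CPM against 322, 349 and 335 CPM (log2 fold change, 0.15). Both synthases were without overlap. CHS1, the repair synthase and the most abundant of the role per kilobase, had 426, 444 and 409.5 CPM against 437, 359 and 376 CPM (log2 fold change, −0.13), and CHS5 had a log2 fold change of −0.11. Those 2 overlapped.

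The glucan hydrolases and cross-linkers showed small differences. All 7 were tested, 0 had an unadjusted P value below 0.05 in either tool, and their log2 fold changes lay between −0.03 and 0.18. CRH1, which joins chitin to glucan, had 545, 526 and 567 CPM in WT samples and 684, 585 and 587 CPM in Δset2 samples. BGL2, a glucanosyltransferase and the most abundant of this role per kilobase, had 1218, 1345 and 1154 CPM against 1276, 1447 and 1353 CPM. EXG2, an anchored exoglucanase, had 96.2, 74.6 and 98.2 CPM against 92.7, 114 and 94.3 CPM. Only CRH1 and SCW4 of the 7 (28.6%) were without overlap, against 27.9% of all tested units. For CRH1 this rested on a gap of less than the spread within Δset2. In the secreted exoglucanase EXG1, in EXG2 and in the CRH1 relative UTR2, WT 2 was the lowest of the 6 samples (627, 74.6 and 711 CPM).

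Cell separation genes were the 1 role with a median below 0, at −0.03. These are mostly daughter-specific enzymes that degrade the septum. Of 6 tested, 0 passed the adjusted P value with either tool. At an unadjusted P value below 0.05 there was 1 gene (16.7%), against 23.6% of all tested units. That gene was SUN4, a glucanase-like protein of the septum, with 37.7, 32.3 and 34.6 CPM in WT samples and 24.2, 29.9 and 30.2 CPM in Δset2 samples. The log2 fold change was −0.31 (SE, 0.12; adjusted P value, 0.15). Only 143 nt of the SUN4 unit (6.95%) lie outside other units, so the value describes a short stretch of the gene. DSE1, a daughter-specific protein, had 208, 238 and 239 CPM against 180.2, 184 and 233 CPM, which overlapped (log2 fold change, −0.19; adjusted P value, 0.36). CTS1, the endochitinase that frees the daughter, had 597, 670.4 and 633 CPM against 685, 639.5 and 750.5 CPM, which also overlapped (log2 fold change, 0.13). SCW11, DSE4 and EGT2 had log2 fold changes of −0.02, 0.02 and −0.05.

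Structural wall proteins included HPF1, which had the largest log2 fold change of the 42 genes. Of 9 tested, 8 had a positive log2 fold change, 6 had all Δset2 samples above WT, and 4 had an unadjusted P value below 0.05. Of all tested units, 49.5%, 14.1% and 23.6% did so, and the list was chosen with earlier results known. The median of the role was 0.33. Besides HPF1 and SED1, these 4 included CWP1 and CWP2, neighbouring genes for anchored mannoproteins. CWP1 had 34.0, 49.2 and 36.4 CPM in WT samples and 61.6, 52.8 and 58.5 CPM in Δset2 samples, with WT 2 close to Δset2 2 (log2 fold change, 0.54; SE, 0.14; adjusted P value, 0.052). CWP1 was counted on 28.0% of its unit. It passed the adjusted P value in 4 of 14 alternative fits, among them DESeq2 (0.020), and had 0.20 without WT 3. CWP2 had 1169, 1407 and 1302 CPM against 1616, 1538 and 1706 CPM (log2 fold change, 0.33; SE, 0.11; adjusted P value, 0.11).

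CCW12, the most abundant wall mannoprotein, had 8365, 10330 and 9087 CPM in WT samples and 10540, 10400 and 10560 CPM in Δset2 samples. WT 2 almost reached the Δset2 values, and the log2 fold change was 0.18 (SE, 0.12; adjusted P value, 0.40). SPI1, a small anchored protein known from weak acid stress, was the most variable of the role, with 9.31, 24.2 and 12.8 CPM against 24.5, 15.9 and 22.5 CPM. In this gene WT 2 was about level with the highest Δset2 sample, and no difference was detectable (adjusted P value, 0.35). CCW14 had a log2 fold change of 0.15 and no overlap, TOS1 one of 0.02, and ECM33, needed for the mannoprotein layer, one of −0.09. The last 2 overlapped.

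All 4 PIR genes had a positive log2 fold change, from 0.29 to 0.59, against 49.5% of all tested units. Their depth differed widely. CIS3 passed the adjusted P value. HSP150, its neighbour on chromosome X, had 1786, 1956 and 1916 CPM in WT samples and 2608, 2029 and 2299 CPM in Δset2 samples, without overlap (log2 fold change, 0.29; SE, 0.12; adjusted P value, 0.17). PIR3 had 9.14, 11.6 and 8.82 CPM against 17.3, 9.77 and 11.7 CPM, where the groups overlapped (log2 fold change, 0.42; adjusted P value, 0.25). PIR1 had only 5, 20 and 17 reads in WT samples and 20, 9 and 34 in Δset2 samples. At that depth its log2 fold change of 0.59 (SE, 0.43) was not distinguishable from 0 (adjusted P value, 0.45), and it moved between 0.21 and 1.06 when single samples were left out. PIR1 and PIR3 share a few 76-nt words, which leaves 99.5% and 99.4% of their words unique.

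Levels per kilobase spanned a wide range, and the largest difference was found in a gene near the low end. CCW12 led with 15210 ± 1630 CPM per kb in WT (SD, n = 3), followed by CWP2 with 3332 ± 308 and GAS1 with 1498 ± 38.8. The gap from CCW12 to CWP2 was far larger than the spread of either. HSP150 (1116 ± 52.6), ECM33 (978 ± 149), SED1 (971 ± 57.4) and BGL2 (930 ± 72.9) formed a run in which neighbours lay within their spread. HPF1 ranked 37 of 42, at 31.6 ± 3.13 CPM per kb in WT and 77.8 ± 12.1 in Δset2. At the low end were KNH1 (5.67 ± 0.23) and PIR1 (3.36 ± 2.22). Levels per kilobase use the length outside other units, which was under 50% of the unit for 6 tested genes.

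**Figure D3:**
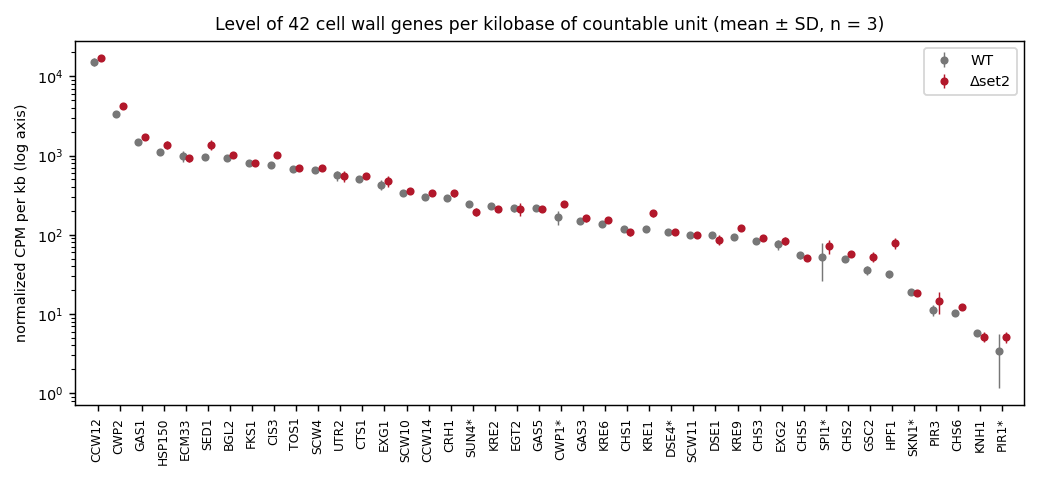
Level of the 42 tested cell wall genes in normalized CPM per kilobase of countable unit (log axis), as the mean and SD of 3 samples for WT (grey) and Δset2 (red), ordered by the WT level. Asterisks mark genes counted on under 50% of their unit. CCW12 stands above all others at 15210 CPM per kb in WT, and HPF1 and KRE1 show the clearest gaps between groups.

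The samples within a group were not alike, and genes of the general stress response varied with them. The summed level of HSP12, HSP26, CTT1 and DDR2 was 56.4, 178 and 74.5 CPM in WT samples and 225, 137 and 208 CPM in Δset2 samples. WT 2 therefore exceeded Δset2 2, and the groups overlapped. All 4 genes had positive log2 fold changes (0.67 to 1.16, median 0.97), against 49.5% of all tested units. In edgeR, 3 had an unadjusted P value below 0.05 and 0 passed the adjusted P value, and DESeq2 gave 1 and 0. Of all tested units, 23.6% had an unadjusted P value below 0.05 in edgeR, 12.8% as higher. The list's remaining gene, GRE1, had 0 reads. In all 4 stress genes WT 2 was the highest WT sample and Δset2 2 the lowest Δset2 sample. The same order held for 3 of the 5 wall genes past the adjusted P value (HPF1, GSC2 and SED1), for 13 of 42 wall genes (31.0%) and for 22.4% of all tested units. KRE1 did not follow it, since WT 2 was its lowest WT sample. The part of the stress genes' variation in the wall gene differences was not tested.

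**Figure D4:**
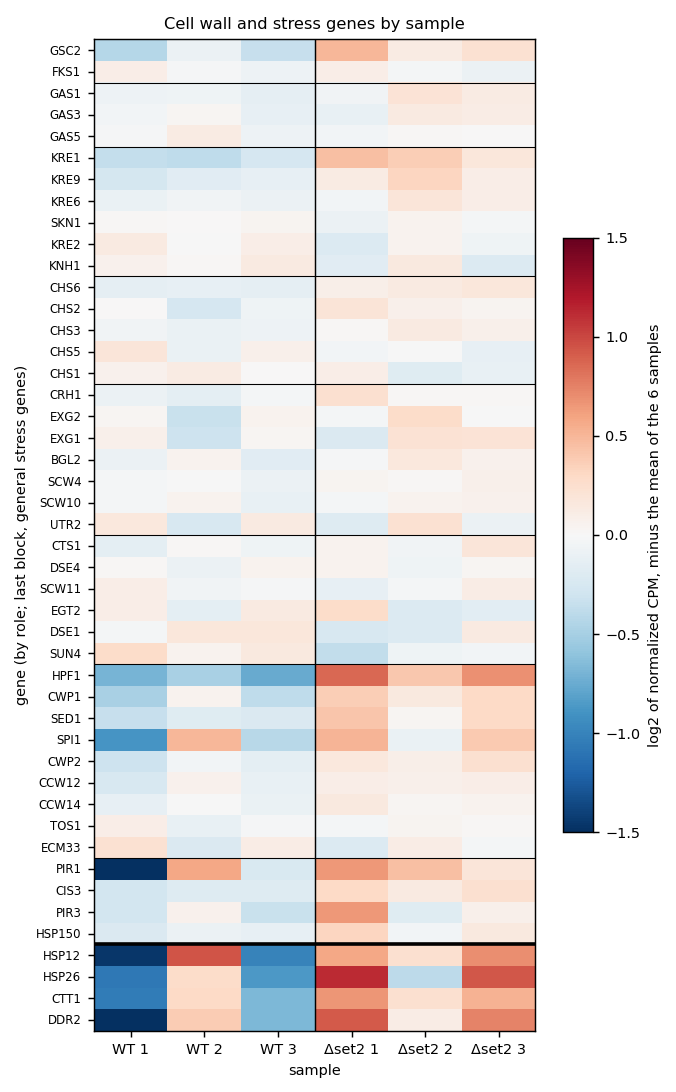
Log2 of normalized CPM in each of the 6 samples minus the mean over the 6, for the 42 tested cell wall genes by role and, under the thick line, 4 general stress genes. Blue is below and red above the mean. WT 2 is the highest WT sample and Δset2 2 the lowest Δset2 sample in the stress block and in HPF1, GSC2 and SED1, whereas KRE1 is lowest in WT 2.

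Each sample was also left out in turn. HPF1 passed both thresholds in every one of these fits (log2 fold change, 1.19 to 1.41), and so did KRE1 (0.60 to 0.74). GSC2, SED1 and CIS3 stayed higher in Δset2, with log2 fold changes of 0.45 to 0.67, 0.41 to 0.60 and 0.41 to 0.48. Their adjusted P values did not stay below 0.05 in every fit. Without WT 1, without WT 3, without Δset2 1 or without Δset2 3, only 2 wall genes (HPF1 and KRE1) passed the adjusted P value, down from 5, and the share of all units fell from 6.24% to between 1.51% and 2.5% in these fits. Without WT 2 the number rose to 9 (14.7% of all units), and 5 of these passed both thresholds (CWP1, GSC2, HPF1, KRE1 and SPI1), while 6.94% of all units did so. Without Δset2 2, 4 wall genes passed both thresholds (GSC2, HPF1, KRE1 and SED1), against 4.07% of all units.

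**Figure D5:**
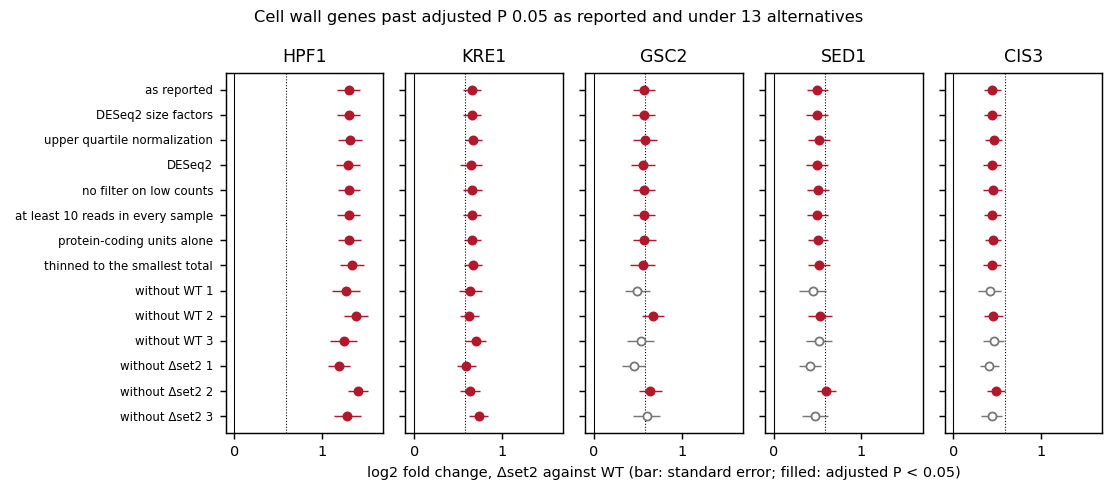
Log2 fold change of Δset2 against WT for the 5 cell wall genes past the adjusted P value, as reported and under 13 alternatives (other normalizations, tool, filters, units, depth and each sample left out). Bars are standard errors, filled red points have an adjusted P value below 0.05, and the dotted line marks a fold change of 1.5. HPF1 and KRE1 are filled in every fit plotted (the replicate block, under which KRE1 is not, is left out), and GSC2, SED1 and CIS3 turn open when WT 1, WT 3, Δset2 1 or Δset2 3 is left out.

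The chromosomal positions of these genes and the values of their neighbours were examined next. HPF1 and KRE1 lie 28.7 kb and 33.2 kb from the nearest chromosome end. Among the 8 nearest tested units of HPF1, log2 fold changes ran from −0.36 to 0.83 and 1 passed both thresholds (ENB1, the enterobactin transporter, at 0.63). Of all tested units, 3.57% passed both thresholds and 6.24% the adjusted P value. For KRE1 the 8 nearest ran from −0.32 to 0.88 with 0 past both thresholds. KRE9, HSP150 and CIS3 lie 5.75 kb, 15.7 kb and 17.4 kb from SET2 on chromosome X. The 22 other tested units within 25 kb of SET2 had a median log2 fold change of 0.02 (−0.55 to 0.29), with 0 past both thresholds and 1 past the adjusted P value. HSP150 and CIS3 are convergent genes that overlap slightly, and without strand information reads reaching across the shared end were discarded.

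Motifs of wall and stress regulators were counted in windows from 250 bases before to 50 bases after the unit start, on both strands, for all 6691 protein-coding units with such a window. AGGGG was found in 9 of 46 wall gene windows (19.6%) and in 21.8% of all windows. The 8 tested genes with it, among them KRE1, SED1 and CIS3, had a median log2 fold change of 0.47. The Rlm1 motif was found in 7 windows (15.2%, against 5.34% of all), those of GSC2, GAS5, CHS6, BGL2, CCW14, PIR3 and HSP150, whose median was 0.27. CGCGAAA, bound by Swi4 with Swi6 at the start of the cell cycle, was also found in 7 (15.2%, against 4.11%), including CCW12 and CWP2, with a median of 0.09. TATAAA was found in 27 (58.7%, against 45.2%). In wall gene windows, matches to the Rlm1 motif and TATAAA overlapped in 2 windows, and no other pair of these motifs overlapped. The genes with each motif overlap between sets, and no difference between the sets was tested.

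Genes that regulate or supply the wall were then counted from separate lists. In the cell wall integrity pathway, 23 of 26 genes were tested, and 1 passed both thresholds (4.35%, against 3.57% of all tested units). This was KDX1, a kinase paralog of the pathway's MAP kinase Slt2 and a known target of Rlm1, with 12.0, 11.9 and 12.0 CPM in WT samples and 17.4, 21.5 and 23.5 CPM in Δset2 samples. The groups did not overlap (log2 fold change, 0.81; SE, 0.13; adjusted P value, 0.0077). Without WT 3 or without Δset2 3 the call was lost (adjusted P value up to 0.073). The pathway's median log2 fold change was 0.08. BCK1, its MAP kinase kinase kinase, was next with a log2 fold change of 0.40 (adjusted P value, 0.071), and WSC2, a wall stress sensor, had 0.32 (adjusted P value, 0.10). Neither passed.

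Among enzymes for wall precursors, mannosylation and assembly, 28 of 29 genes were tested, and the median log2 fold change was −0.04. Of these, 1 passed both thresholds (3.57%, the same share as of all tested units). FKS3, a glucan synthase homolog known from sporulation, had 4.10, 4.23 and 3.22 CPM in WT samples and 6.29, 10.2 and 9.63 CPM in Δset2 samples (log2 fold change, 1.18; SE, 0.21; adjusted P value, 0.012). Its counts were low, at 43 to 220 reads, and the call was lost without WT 3 or without Δset2 3 (adjusted P value up to 0.11). MNN1, the mannosyltransferase that caps mannan chains, was lower, with 286, 256 and 294 CPM against 193, 206 and 228 CPM. Its groups did not overlap, and it passed the adjusted P value but not the fold change (log2 fold change, −0.41; SE, 0.10; adjusted P value, 0.042). This adjusted P value ranged up to 0.16 with single samples left out.

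Of 23 other wall proteins and enzymes, 14 were tested, with a median log2 fold change of 0.19. A positive log2 fold change was found for 12 (85.7%, against 49.5% of all tested units). The anchored aspartyl protease YPS3 passed the adjusted P value, with 110.0, 113 and 113 CPM in WT samples and 145, 144 and 137 CPM in Δset2 samples (log2 fold change, 0.34; SE, 0.08; adjusted P value, 0.046). The groups did not overlap, but the pass was lost when any sample other than WT 2 was left out (adjusted P value up to 0.17). PST1, a wall protein known to be induced by wall damage, had a log2 fold change of 0.33 (adjusted P value, 0.059). No gene of this list passed both thresholds in edgeR or DESeq2, and 4 and 3 genes had an unadjusted P value below 0.05. In edgeR, 3 of these were higher (21.4%, against 12.8% of all tested units) and 1 was lower (7.14%, against 10.7%). The lower gene was CDA1, with 5 to 18 reads per sample (log2 fold change, −1.11; adjusted P value, 0.17).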

How the data were processed

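RNA was measured in 3 WT and 3 Δset2 samples, grouped by the labels. The authors mapped reads to sacCer3 with TopHat2 (2.1.0), kept reads with 1 genomic position and a mapping quality of at least 20, and deposited counts per transcriptional unit (Ensembl EF4.74 with added noncoding units), made without regard to strand and without reads on more than 1 unit. The deposited FPKM values were not used. Columns deposited from the authors' own DESeq2 comparison were also not used: a signal column (mean of normalized counts), log2 fold changes, a Wald score, and p-values. The table held 6 count columns and 0 columns of other samples.

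After filterByExpr and TMM normalization, edgeR 4.0.16 (R 4.3.3; limma 3.58.1) was used for quasi-likelihood fits and F tests, and P values of 5317 units were adjusted by the Benjamini-Hochberg method. Standard errors were derived from the log2 fold change and its F statistic. Biological variation between samples was 0.121 as a coefficient of variation. The alternative tool was DESeq2 1.42.0. Tables and figures were made with Python 3.11.15, numpy 2.4.6, pandas 2.3.3 and matplotlib 3.10.9. CPM were TMM normalized, and levels per kilobase were divided by the length outside other units. Totals were 5135226 to 22536840 reads, and counting error limits genes with few reads.

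The 46 genes and the other lists were chosen with earlier results of these data known. Values are given for genes past a threshold, for the 2 largest differences and the most abundant gene of each role, for untested genes, and, from the other lists, for called genes and up to 2 others with the smallest P values. Some further genes of these lists are given by their log2 fold change. The lists were the cell wall integrity pathway, precursor and assembly enzymes, other wall proteins, and MATa, MATα, sporulation and general stress genes. Of 8 sporulation genes, 4 were tested and 0 passed the adjusted P value or an unadjusted P value below 0.05 in edgeR or DESeq2. Of 7 MATa-specific genes, 6 were tested and 0 passed the adjusted P value, with 1 at an unadjusted P value below 0.05 in each tool. Samples were separate colonies, and P values weigh the group difference against the spread between them. Any other change shared by the Δset2 colonies could not be told apart from the deletion. The W303 sequence was not examined. Some results are not reported here.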

Additional observations from a re-analysis of the deposited data

How the results depend on the processing

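The alternatives were DESeq2 size factors, upper quartile normalization, DESeq2, no filter on low counts, at least 10 reads in every sample, protein-coding units alone, thinning to the smallest total, a replicate block, an adjusted P value alone, and leaving out each sample. HPF1 passed both thresholds in all 14 fits and KRE1 in 13. The replicate numbers did not pair the samples: deviations of same-numbered WT and Δset2 samples correlated at −0.36, −0.39 and −0.14. Those of differently numbered samples correlated at −0.13 to 0.37, highest for WT 1 with Δset2 2 (0.37) and WT 2 with Δset2 1 (0.34). Deviations within a group sum to 0, so these correlations are not independent of each other. A fit with this replicate block gave 1 cell wall gene (HPF1) past both thresholds, 1 past the adjusted P value and 75 units past both thresholds in all, and KRE1 had an adjusted P value of 0.055. With the adjusted P value alone, 5 cell wall genes and 332 units passed. Leaving out single samples gave 2 to 5 cell wall genes past both thresholds, 2 to 9 past the adjusted P value and 80 to 373 units past both thresholds. The cause of these changes was not tested, beyond that fewer samples entered each fit. FKS1 changed sign under upper quartile normalization (0.0080) and ranged from −0.064 to 0.036 with single samples left out. The named genes gave 402 values under the alternatives, of which 384 kept their direction and their call by both thresholds together, 10 lost and 4 gained that call, and 4 changed sign. At the adjusted P value alone, GSC2, SED1 and CIS3 each passed in 9 of 14 fits, MNN1 in 7 and YPS3 in 6. SET2 had no value under the filter of 10 reads in every sample, since Δset2 2 had 9. Depth limits PIR1, SPI1, KNH1 and FKS3, and genes overlapped by other units were counted on part of their length.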

Other observations

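Among the mating-type marker genes, SAG1, which encodes the wall-anchored agglutinin of MATα cells, had 21.4, 26.1 and 24.6 CPM in WT samples and 45.5, 41.5 and 45.9 CPM in Δset2 samples. The groups did not overlap (log2 fold change, 0.89; SE, 0.11; adjusted P value from edgeR's quasi-likelihood test, 0.0015), and the gene passed both thresholds in all 14 alternatives. AGA2, the secreted agglutinin subunit of MATa cells, had a log2 fold change of 0.12 (adjusted P value, 0.68). STE3, the pheromone receptor of MATα cells, was lower, with 14, 14 and 22 reads in WT samples and 3, 1 and 5 reads in Δset2 samples (log2 fold change, −2.44; SE, 0.40; adjusted P value, 0.0069). Without WT 3 or without Δset2 3 that call was lost (adjusted P value up to 0.096). The reads do not carry strand, so transcripts from either strand of these units cannot be told apart.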
